A study of Mus musculus with 30 samples.

Results

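The 48 genes followed here encode ribosome biogenesis factors, the proteins that transcribe, fold, modify, cut and export the precursors of the ribosome. They were taken by gene symbol from a table of read counts of 30538 genes. All 48 were found there and all 48 passed the filter on low counts, which kept 13173 genes. The members were chosen by their measured values in these same libraries, with earlier results known, and which of the comparisons below supplied those values is not recorded. Counts of members are therefore descriptions and not independent evidence.

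Ribosome assembly starts in the nucleolus, where RNA polymerase I transcribes one long precursor of the ribosomal RNAs. Small nucleolar ribonucleoproteins (snoRNPs) modify the precursor, a large processome folds and cuts the part that becomes the small (40S) subunit, and a separate line of factors builds the large (60S) subunit. The genes of these factors are classic targets of the transcription factor MYC, and growing cells keep the pathway high. Macrophages leave the cell cycle when bacterial products stimulate them.

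RNA was measured by polyA-selected, stranded sequencing of bone marrow derived macrophages (BMDM), macrophages grown from mouse bone marrow in culture. Wild-type C57BL/6 cells were pretreated for 18 h with OSW-1 at 0.3 µM (a steroidal saponin from a plant), itraconazole at 1 µM (an azole antifungal), or 25-hydroxycholesterol (25HC, an oxysterol) at 5 µM, or were left untreated. The series presents these compounds as inhibitors of the oxysterol binding protein OSBP, a lipid transfer protein. Each condition was then harvested either after 18 h with lipopolysaccharide (LPS, a bacterial cell wall component) at 10 ng/mL or unstimulated. Untreated Ch25h-/- macrophages, which lack the enzyme that makes 25HC, were also harvested with and without LPS. Each of the 10 groups held 3 libraries, 1 from each of 3 mice of that genotype. The ages of the mice, a vehicle for the untreated groups and whether the compounds stayed on during LPS are not given in the sources used here. The compounds were used at different doses, 1 dose each.

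Library totals ran over 23.7 to 43.9 M counts (M, 1e6). Ch25h itself had 7, 0 and 2 counts in unstimulated Ch25h-/- libraries against 94, 86 and 46 in wild-type ones, and 5, 3 and 0 against 40, 78 and 32 with LPS. Csf1r, the receptor that defines macrophages, stood between 1298 and 3233 CPM (counts per M counts, after scaling) in every library. Of the 30 libraries, 20 held even counts throughout. The other 10 also held odd counts: those of OSW-1 with LPS, all 6 Ch25h-/- libraries and the unstimulated 25HC library of mouse 3. In bulk RNA, a change in RNA per cell and a change in the mix of cells cannot be told apart.

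Promoters were matched for 43 of the 48 genes in RefSeq (GRCm38.p6), each window running from 250 bases before the start site to 50 after it. The letters CACGTG, the canonical E-box read by MYC and related factors, were searched on both strands and occurred in 8 of the 43 windows (18.6%), against 8.09% of 27025 mouse promoters. The windows of 4 genes are printed as examples. Tsr1 (with the letters) and Nop58 (without) were higher with every compound in both states. Utp20 (with) was called with no compound at rest, and Rrp1 (without) hardly varied. Whether the letters and the response go together was not tested. They lie at chr11:74897830-74898129 on the plus strand, chr1:59684756-59685055 on the plus strand, chr10:88826765-88827064 on the minus strand and chr10:78412994-78413293 on the minus strand. Capitals mark CACGTG.
Tsr1: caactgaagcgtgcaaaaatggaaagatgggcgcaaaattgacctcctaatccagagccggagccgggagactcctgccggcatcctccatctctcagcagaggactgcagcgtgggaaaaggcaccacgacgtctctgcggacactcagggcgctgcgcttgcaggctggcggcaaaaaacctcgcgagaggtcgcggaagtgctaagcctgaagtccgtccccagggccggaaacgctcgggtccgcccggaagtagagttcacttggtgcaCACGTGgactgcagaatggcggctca
Nop58: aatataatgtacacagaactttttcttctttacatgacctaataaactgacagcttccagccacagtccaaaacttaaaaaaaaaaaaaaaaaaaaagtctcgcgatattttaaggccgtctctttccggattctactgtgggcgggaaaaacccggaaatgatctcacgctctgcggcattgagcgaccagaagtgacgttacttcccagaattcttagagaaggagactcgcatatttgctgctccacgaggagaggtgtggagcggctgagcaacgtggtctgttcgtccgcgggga
Utp20: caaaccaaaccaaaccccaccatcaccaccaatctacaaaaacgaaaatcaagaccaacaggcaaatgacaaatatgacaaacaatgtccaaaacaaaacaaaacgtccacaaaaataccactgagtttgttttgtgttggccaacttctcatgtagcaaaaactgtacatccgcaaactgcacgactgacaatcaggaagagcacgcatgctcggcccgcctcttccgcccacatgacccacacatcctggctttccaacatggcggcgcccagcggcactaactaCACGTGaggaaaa
Rrp1: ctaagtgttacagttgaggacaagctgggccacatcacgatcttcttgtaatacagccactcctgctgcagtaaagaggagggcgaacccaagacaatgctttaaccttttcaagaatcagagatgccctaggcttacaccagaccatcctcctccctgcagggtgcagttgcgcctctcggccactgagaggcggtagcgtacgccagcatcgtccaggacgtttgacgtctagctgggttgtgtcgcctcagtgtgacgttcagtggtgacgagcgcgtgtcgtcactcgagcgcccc

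The match began 24 bases after the annotated start in Tsr1 and 37 after it in Utp20. The other windows with the letters belonged to Mybbp1a (40 bases after the start), Pno1 (37 after), Wdr43 (17 after), Pes1 (2 after), Utp18 (20 before, at -20) and Nop2 (60 before, at -60). Those genes and Tsr1 were called higher with every compound in both states. Windows of Gnl3, Gar1, Nolc1 and Rcl1, which were also higher with every compound, held none. CACGCG, counted on both strands, stood in 14 windows (32.6%) against 10.5% of all promoters, and CCGGAAG, an ETS-family core unrelated to the E-box, in 15 (34.9%) against 9.93%. The 82 promoters of other ribosome assembly and polymerase I factors had shares of 22% for CACGTG, 34.1% for CACGCG and 47.6% for CCGGAAG, none below those of the members. TGATGCAA and the palindromic CGCG element bound by BANP each stood in 0 of the 43 windows (1.03% and 0.525% of all promoters), TTCCCGCC in 3 (6.98% against 2.52%) and ATGGCGG in 4 (9.3% against 4.69%). Member windows were richer in G and C (median 59.3%) than all promoters (52.8%), and the part of this in the shares was not tested. Promoters of cytosolic ribosomal proteins held CACGTG in 5 of 30 windows (16.7%) and CCGGAAG in 12 (40%). A match describes letters only and no binding was measured.

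In unstimulated untreated wild-type macrophages the members spanned a wide range of levels. As RPKM (CPM per kilobase of exon), the highest was Npm1 at 60.4, a nucleolar chaperone of ribosomal proteins, followed by Rrp1 at 46.1 and the processome protein Utp3 at 38.2. The lowest were Rrp1b at 1.14 and Polr1e at 1.15. The summed level of all 48 was 1606 to 1851 CPM. Across the 10 group means Rrp1 varied by 1.12-fold, while Tsr1 varied by 16.8-fold and Rcl1 by 17.3-fold.

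**Figure D1:**
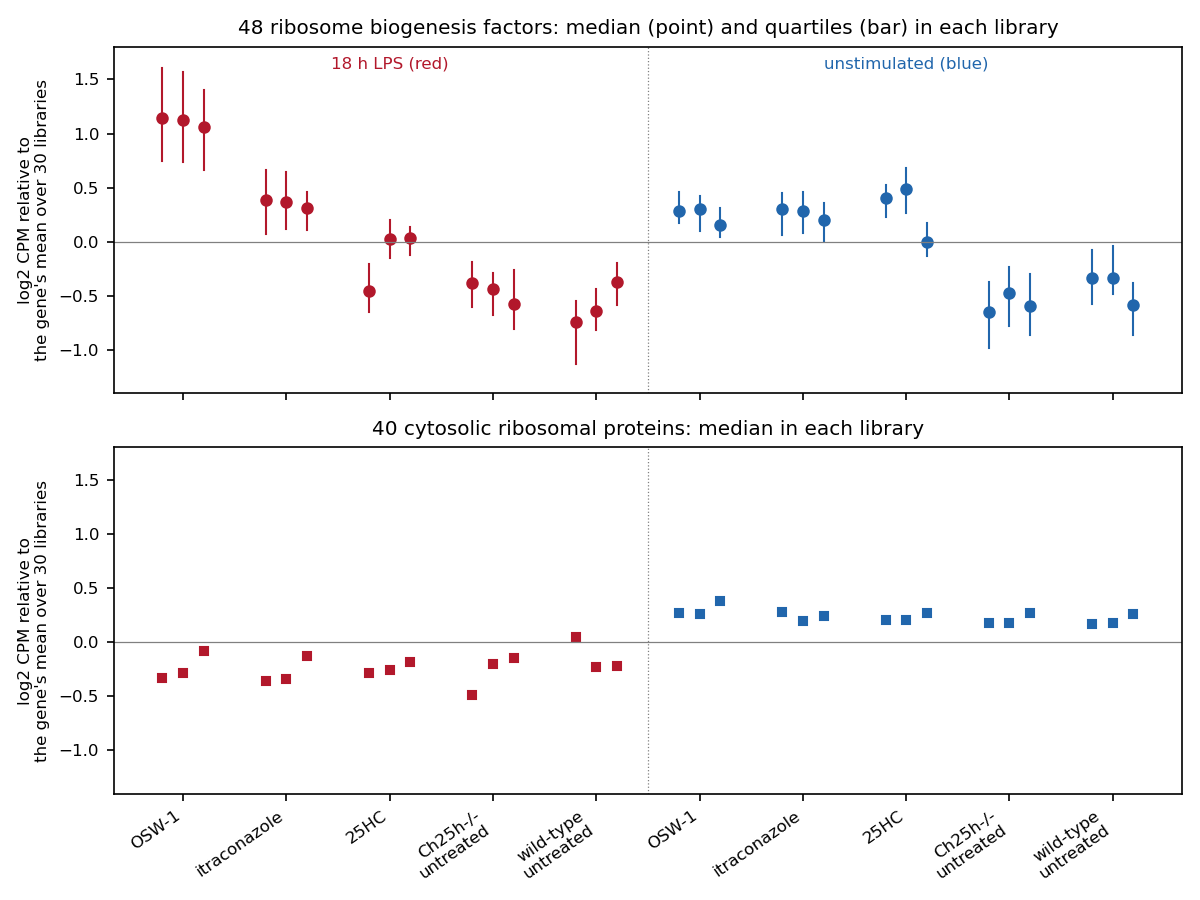
Each point is 1 library and shows the median over genes of log2 CPM minus the gene's mean over the 30 libraries, for the 48 factors (top, bars are quartiles) and for 40 cytosolic ribosomal proteins (bottom). The factors stand highest in the 3 OSW-1 with LPS libraries (1.07 to 1.15), while the ribosomal proteins there stand between -0.33 and -0.08.

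Each compound alone was compared with untreated wild-type cells, both unstimulated. Members were called at an adjusted p under 0.05 by edgeR's quasi-likelihood test, adjusted over all 13173 genes. With OSW-1, 36 of 48 were higher and 0 lower, where 20.1% of all tested genes were higher and 17.2% lower. With itraconazole, 36 were higher and 0 lower (14.4% and 12.4% of all genes), and with 25HC, 37 were higher and 0 lower (15.9% and 12.8%). Median log2 fold changes were 0.63, 0.66 and 0.71 in that order, where the median of all genes was 0.00, 0.00 and 0.01. At least 2-fold increases were called for 8, 9 and 12 members in that order, against 4.51%, 2.88% and 2.84% of all genes. Every compound library lay above every untreated one for 39, 45 and 41 members, against 27.5%, 25.7% and 24.1% of all genes. The compounds share the same 3 untreated libraries, so these counts are not independent of each other. Without the 25HC library of mouse 3, whose members stood lower than in the other mice of that group, 41 were higher with 25HC. That library alone among these also held odd counts, so mouse and counting cannot be told apart in it. Without the 25HC library of mouse 2 the count was 27. Without the shared untreated library of mouse 3, whose members stood lowest of the untreated libraries, 30 were higher with OSW-1, 27 with itraconazole and 27 with 25HC. The shares of all genes called with a library left out were not counted, here and below.

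The small subunit line held the gene that moved most. Tsr1 (chr11:74898071-74909342, plus strand), a GTPase-like protein that sits on late precursors of the small subunit, had 45.8, 48.1 and 40.4 CPM with OSW-1, 40.1, 39.998 and 40.3 with itraconazole and 47.4, 53.3 and 34.1 with 25HC, against 13.4, 15.5 and 11.2 in untreated cells. Every compound library lay above every untreated one. The log2 fold changes were 1.74 ± 0.20, 1.59 ± 0.20 and 1.75 ± 0.20 (± SE, 3 libraries a group, here and below). Tsr1 shares 1240 exon bases with Srr, a gene on the opposite strand. The strand setting of the counting is not given, and Srr had log2 fold changes of -0.16, -0.26 and -0.26, none called.

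All 4 late small subunit factors were higher with every compound. Rrp12, an export factor, rose by a log2 fold change of 1.23 ± 0.23 with OSW-1, 1.36 ± 0.23 with itraconazole and 1.45 ± 0.23 with 25HC. Pno1 and its partner Nob1, the nuclease that makes the final cut of the small subunit RNA, rose by 0.57 to 0.77 and by 0.50 to 0.69. Upstream in the same line, the t-UTP proteins Wdr43 and Wdr75, which join the nascent transcript early, rose by 0.79 to 1.01 with each compound. Heatr1, of the same group, was called with none of them (0.21 to 0.41). Of 9 processome genes, 6, 5 and 6 were higher with OSW-1, itraconazole and 25HC. Utp3, Utp20 and the GTPase Bms1 were called with none.

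Genes of the transcription and modification steps moved as well. Polr1a, the largest subunit of polymerase I, had 39.3, 39.5 and 29.6 CPM with OSW-1, 40.4, 43.0 and 31.5 with itraconazole and 45.5, 47.9 and 28.2 with 25HC, against 20.04, 21.7 and 14.3 in untreated cells. Its range did not overlap that of untreated cells with any compound. Polr1b and Polr1e also rose with each, and Polr1c, a subunit shared with polymerase III, with none. In the box C/D snoRNP, which methylates ribosomal RNA, the scaffold genes Nop58 and Nop56 rose by 0.91 to 1.26, while the methyltransferase gene Fbl was called with none (0.21 to 0.38). In the box H/ACA snoRNP, which makes pseudouridine, Dkc1 and Gar1 rose with each compound and Nop10 with none.

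For the large subunit, 10, 11 and 11 of the 12 assembly factors were higher with OSW-1, itraconazole and 25HC. Gnl3 (nucleostemin), a nucleolar GTPase, had 39.6, 36.6 and 32.5 CPM with OSW-1, 35.7, 36.6 and 33.0 with itraconazole and 41.5, 49.1 and 28.1 with 25HC, against 16.4, 18.8 and 10.96 in untreated cells. The methyltransferase gene Nop2 and Rrs1, which brings in the 5S particle, rose by 0.91 to 1.13. Rrp15 was not called with OSW-1 (0.44 ± 0.22). Rrp1 was called with no compound: it stood at 148 to 160 CPM in all 12 of these libraries, with fold changes between -0.02 and 0.00. In the PeBoW complex, which acts in processing of the large subunit RNA, Pes1 and Bop1 rose and Wdr12 was called with none. Among nucleolar proteins, the chaperone gene Nolc1, the MYB partner Mybbp1a and the helicase gene Ddx21 rose by 0.87 to 1.12. The abundant Ncl and Npm1 had smaller fold changes of 0.10 to 0.23. Ncl was called higher with 2 of the compounds and Npm1 with 1.

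In all, 33 members were called higher with each of the compounds at rest, 6 with 1 or 2 and 9 with none. The matching shares of all genes were not counted, and the compounds share the same untreated libraries. The 9 were Polr1c, Fbl, Nop10, Heatr1, Utp3, Utp20, Bms1, Wdr12 and Rrp1. Utp20 had fold changes of 0.56 to 0.72, near those of called genes, with SE of 0.28.

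**Figure D2:**
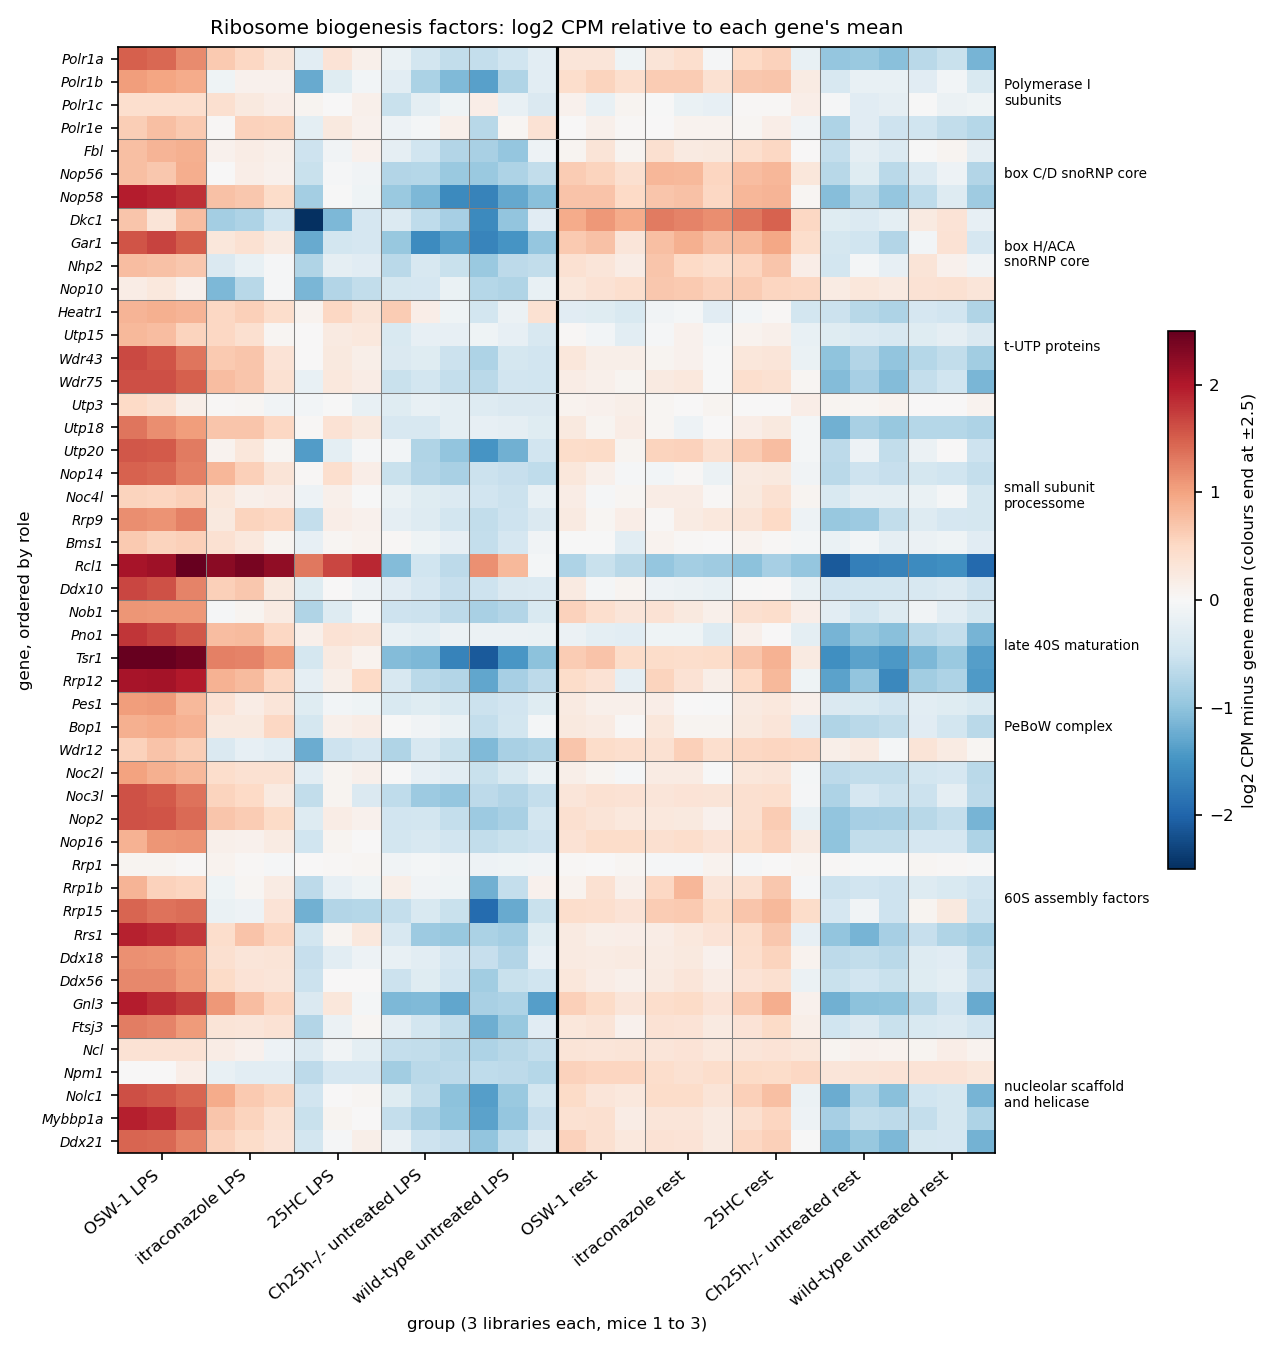
Rows are the 48 genes by role and columns the 30 libraries, and colour is log2 CPM minus the gene's mean (colours end at ±2.5). The OSW-1 with LPS columns are the darkest red for 44 genes by group mean, and Rrp1 is nearly white throughout. The share of all genes highest in that group was not counted.

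LPS alone moved members in both directions. Between LPS and unstimulated untreated wild-type cells, 5 members were higher and 15 lower, with 28 called in neither direction, where 30.8% of all genes were higher and 30.1% lower. The median log2 fold change was -0.16, against -0.01 for all genes. All 7 snoRNP core genes were lower. Gar1 had 2.15, 2.46 and 3.53 CPM with LPS against 6.57, 8.86 and 5.14 without, with no overlap and a log2 fold change of -1.34 ± 0.22. Dkc1, Nop10 and Nhp2 fell by 1.001, 0.89 and 0.85 on the log2 scale, and Nop58, Fbl and Nop56 fell by 0.71, 0.55 and 0.39.

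Others that fell were Rrp15 (-1.12 ± 0.23), Wdr12 (-1.09 ± 0.15), Npm1 (-0.995 ± 0.07), Ncl (-0.79 ± 0.07) and Utp20 (-0.79 ± 0.28). Utp3, Nob1 and Rrp1 fell by 0.39, 0.38 and 0.13 on the log2 scale. The 5 that rose were Rcl1 (2.40 ± 0.22), Pno1 (0.64 ± 0.12), Polr1e (0.58 ± 0.19), Heatr1 (0.51 ± 0.17) and Utp18 (0.50 ± 0.10). Dkc1, Nhp2, Heatr1 and Pno1 share exon bases with opposite-strand genes that moved the same way with LPS. These were Mpp1 (-0.50), Rmnd5b (-0.95), Lgals8 (0.66) and Wdr92 (0.50). Idh3b, which overlaps Nop56, rose (0.21), and Carf, which overlaps Wdr12, was not called (-0.32). Whether such overlaps entered the member counts was not tested. Rcl1 (chr19:29101375-29143929, plus strand) encodes a cyclase-like partner of Bms1 in the processome. It had 50.4, 39.7 and 21.9 CPM with LPS against 7.61, 7.76 and 5.82 without. The counts moved when 1 library was left out: without the LPS library of mouse 1 the number lower was 8. Without that of mouse 3 the number higher was 3. The counts also moved with the scaling. With total counts in place of TMM, an option chosen after the data were seen, the median of all genes shifted by -0.34 and 2 members were higher and 32 lower, where 17.3% of all genes were higher and 49.6% lower. In the same comparison 25 of 26 cell cycle genes fell (median -3.998), Mki67 by 3.44 on the log2 scale, and 25 of 40 ribosomal protein genes fell (median -0.33).

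In Ch25h-/- cells LPS gave 14 members higher and 6 lower, where 28% of all genes were higher and 29.2% lower, with a median of 0.05. The direct test of the response in Ch25h-/- against wild-type called 0 of 48 in either direction by edgeR, with 7 at an unadjusted p under 0.05 (0% of all genes called in either direction). DESeq2 called 1 lower and 0 higher. Without the wild-type LPS library of mouse 3, 4 were higher and 1 lower. The LPS response was also taken within each pretreatment. With OSW-1, 40 were higher and 1 lower (34.8% and 36.6% of all genes), median 0.96, and the 1 was Npm1 (-0.49 ± 0.07). With itraconazole, 14 were higher and 10 lower (33.4% and 33.6%), and with 25HC, 3 were higher and 27 lower (30.6% and 33.3%). With total counts in place of TMM those counts became 5 and 16 with itraconazole (21.1% and 46.9% of all genes), 1 and 41 with 25HC (18.2% and 49.9%), and 4 and 15 in Ch25h-/- cells (17.1% and 44.3%). Without the 25HC with LPS library of mouse 1 the number lower with 25HC was 17. The number higher was 1 without that of mouse 2, and likewise without the unstimulated 25HC library of mouse 3.

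The comparison with LPS in both arms gave the largest values. With OSW-1, all 48 members were higher than in untreated LPS cells, where 34.3% of all tested genes were higher and 37.1% lower. In all 48, every OSW-1 library lay above every untreated one, which held for 34.5% of all genes. The median log2 fold change was 1.64, against -0.06 for all genes, and 38 members were at least 2-fold higher, against 13.7% of all genes. Summed over the members, OSW-1 with LPS libraries held 4083 to 4490 CPM, against 1337 to 1589 in untreated LPS libraries. With total counts in place of TMM all 48 were again higher, where 43.3% of all genes were higher and 29% lower. With itraconazole 46 were higher and 0 lower (26.5% and 27.9% of all genes), median 0.86, the others being Dkc1 and Nop10. Of these, 19 were at least 2-fold higher (5.91% of all genes), and groups did not overlap for 43 (24.5%). Without the itraconazole library of mouse 3, 1 was lower. With 25HC 33 were higher and 0 lower (20.8% and 21% of all genes), median 0.43, with 3 at least 2-fold higher (4.14%) and 22 without overlap (20.9%). The 33 became 21 without the 25HC with LPS library of mouse 2.

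Tsr1 again led. It had 195, 185 and 157 CPM with OSW-1 and LPS, 70.3, 68.9 and 61.5 with itraconazole and LPS and 21.5, 34.4 and 31.1 with 25HC and LPS, against 6.76, 10.7 and 14.5 with LPS alone. The 4 groups did not overlap. Its log2 fold changes were 4.07 ± 0.22, 2.65 ± 0.21 and 1.45 ± 0.21, while Srr on the other strand fell by 2.11, 0.93 and 0.73 on the log2 scale.

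Nop58 (chr1:59684971-59719044, plus strand) had 125, 120 and 115 CPM with OSW-1 and LPS, 53.7, 51.7 and 44.3 with itraconazole and LPS and 17.8, 31.8 and 29.8 with 25HC and LPS, against 10.1, 13.3 and 15.6 with LPS alone. All OSW-1 and LPS libraries also lay above unstimulated untreated cells (20.6, 25.6 and 17.3 CPM). Gar1, the gene that LPS lowered most, had 20.7, 22.3 and 19.8 CPM with OSW-1 and LPS (2.95 ± 0.22 over LPS alone). Rrp12, Gnl3, Mybbp1a, Rrp15, Rrs1 and Utp20 followed at 2.95, 2.82, 2.74, 2.57, 2.48 and 2.46.

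Mybbp1a (chr11:72441355-72451768, plus strand) had 418, 397 and 329 CPM with OSW-1 and LPS, 176, 160 and 141 with itraconazole and LPS and 74.0, 114 and 110 with 25HC and LPS, against 43.1, 55.3 and 72.6 with LPS alone. By length, it stood at 65.7 RPKM with OSW-1 and LPS, above Npm1 (50.4) and below Pno1 (78.3), the highest member there. The small end of the OSW-1 range was Rrp1 (0.16 ± 0.05), Polr1c (0.52 ± 0.11), Polr1e (0.71 ± 0.19), Utp3 (0.71 ± 0.07), Nop10 (0.72 ± 0.18) and Npm1 (0.73 ± 0.07).

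The remaining members lay between these ends with OSW-1 and LPS. On the large subunit line, Nop2 rose by 2.24, the Noc proteins Noc3l and Noc2l by 2.16 and 1.26, the methyltransferase gene Ftsj3 by 1.96, the helicase genes Ddx56 and Ddx18 by 1.79 and 1.59, and Nop16 by 1.602, all log2 fold changes. On the small subunit line, Wdr75, Wdr43 and Utp15 rose by 2.12, 2.08 and 0.95, the processome genes Nop14, Ddx10, Rrp9, Utp18 and Noc4l by 1.99, 1.92, 1.69, 1.43 and 0.97, and Pno1 and Nob1 by 1.83 and 1.73. Nolc1 and Ddx21 rose by 2.42 and 2.02. Dkc1, Gnl3, Ncl, Nop56, Nop58, Tsr1 and Wdr43 also carry small nucleolar RNA genes in the annotation, which these counts do not measure.

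**Figure D3:**
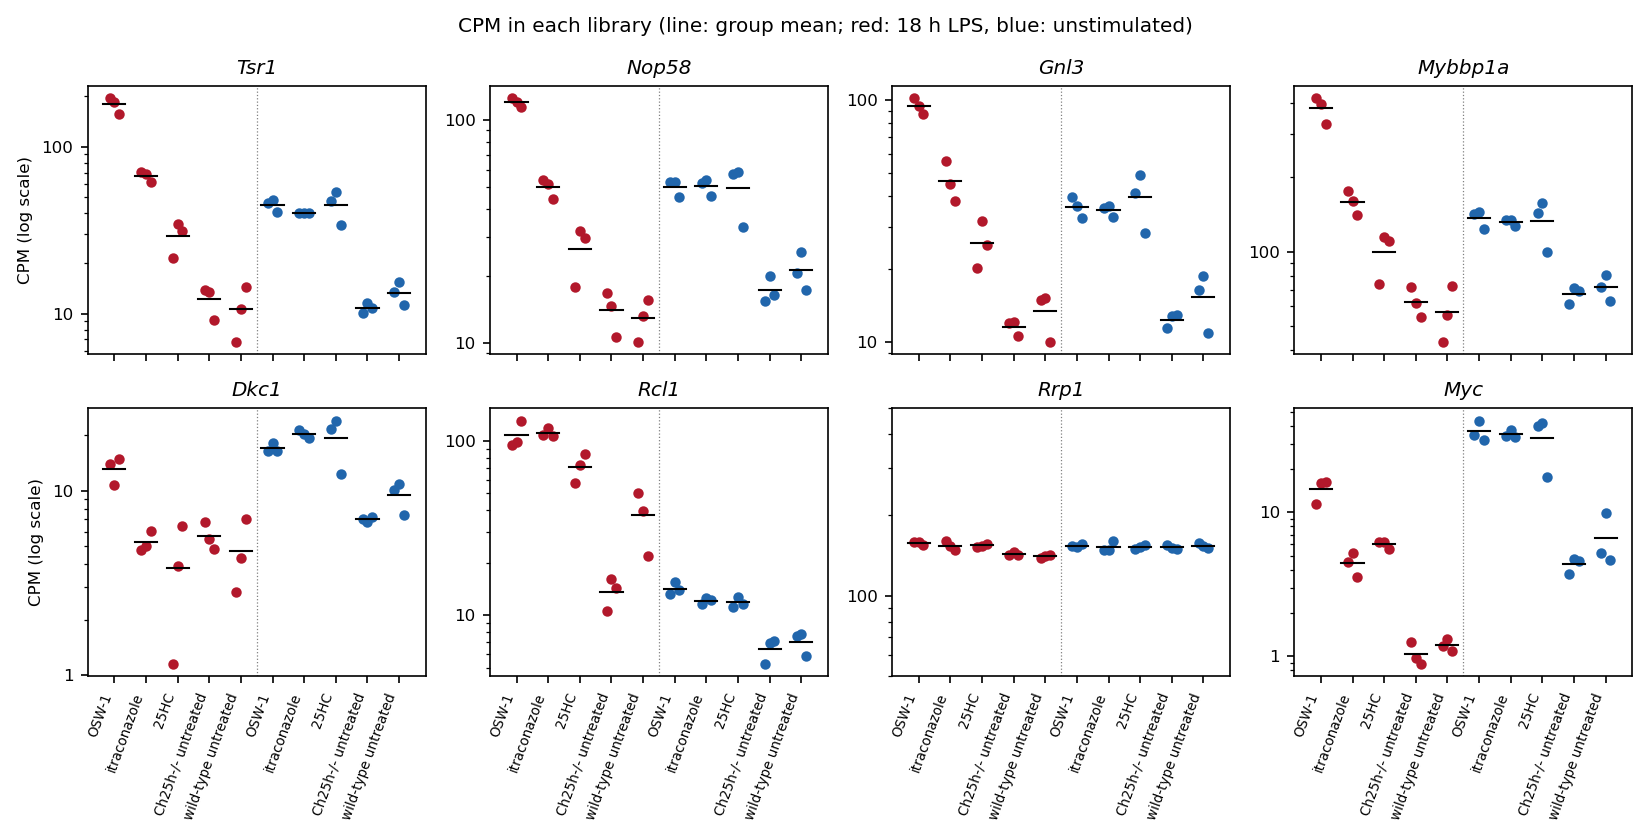
CPM on a log scale in each library (points) with group means (lines) for 7 members and Myc, LPS groups in red and unstimulated groups in blue. Tsr1, Nop58, Gnl3 and Mybbp1a step down from OSW-1 to itraconazole to 25HC with LPS, Rcl1 stands near 14 CPM in Ch25h-/- LPS cells, and Rrp1 is level.

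By role, the late small subunit factors had the highest median with OSW-1 and LPS (2.39 over 4 genes), followed by the nucleolar proteins (2.02 over 5) and the large subunit factors (1.88 over 12). The polymerase I subunits had the lowest (1.22 over 4). With 25HC and LPS, 1 of 4 polymerase I subunits was higher (Polr1a, 0.53 ± 0.19) and 1 of 4 box H/ACA genes (Gar1, 0.68 ± 0.22). Dkc1, which makes pseudouridine, had 1.15, 3.91 and 6.46 CPM with 25HC and LPS, against 2.83, 4.32 and 7.05 with LPS alone, and was not called (-0.31 ± 0.35). In mice 1, 2 and 3 alike the 25HC value was the lower one, and the spread between mice exceeded that difference.

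Across both states, 26 members were called higher in all 6 comparisons of a compound with untreated cells. The share of all genes called in all 6 was not counted, and comparisons within a state share their untreated libraries. The 26 members included Polr1a, Nop56, Nop58, Gar1, Tsr1, Rrp12, Pno1, Rcl1, Pes1, Gnl3, Nolc1, Mybbp1a and Ddx21. Members with a larger change at rest also tended to have a larger change with LPS, where the controls are separate libraries. Over the 48 genes Pearson's r between the log2 fold changes was 0.79 with OSW-1, 0.72 with itraconazole and 0.67 with 25HC, against 0.44, 0.43 and 0.43 over all 13173 tested genes. These are correlations across genes, which are not independent replicates, and libraries of the same mouse enter both sides.

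**Figure D4:**
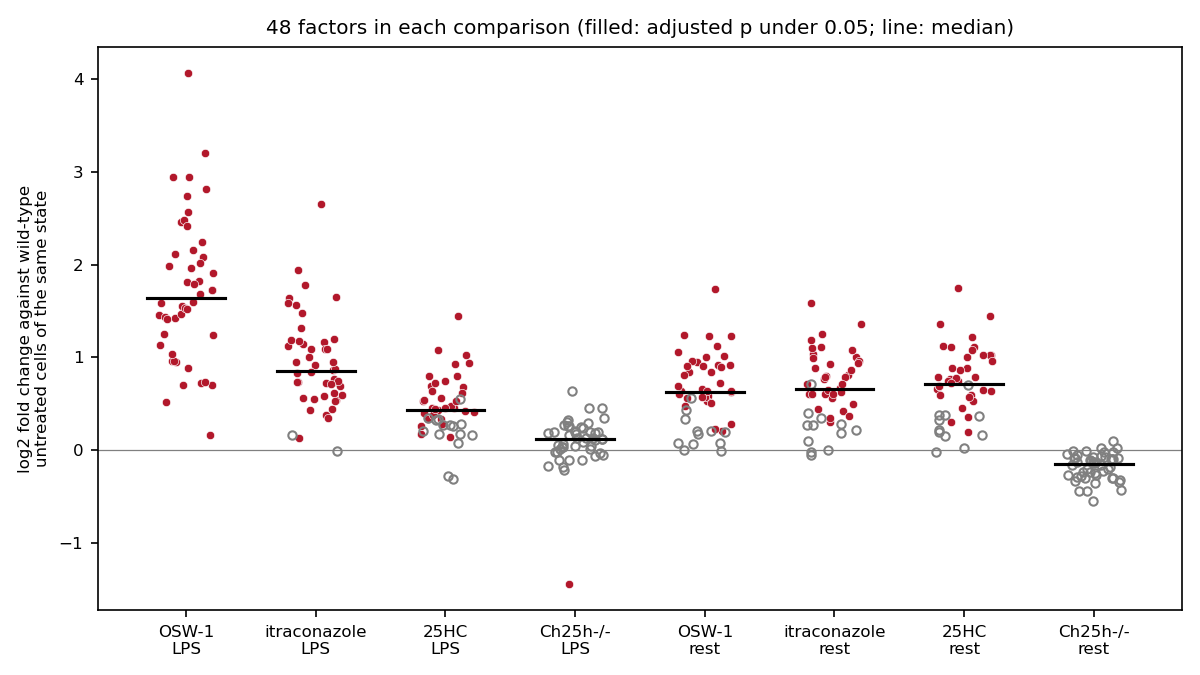
Each point is 1 of the 48 genes, its log2 fold change against untreated wild-type cells of the same state, filled where the adjusted p was under 0.05 and with a line at the median. With LPS the medians are 1.64, 0.86 and 0.43 for OSW-1, itraconazole and 25HC, and at rest they are 0.63, 0.66 and 0.71.

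The compounds were also set against each other, at their different doses. The 3 pairs were compared in each state, each p adjusted over all genes and not over the pairs. At rest no member was called in any of the 3 pairs, where 1.49%, 3.58% and 0.0835% of all genes were higher and 1.34%, 2.75% and 0.152% lower for OSW-1 against 25HC, OSW-1 against itraconazole and 25HC against itraconazole. DESeq2 also called 0, and 0, 1 and 0 members had an unadjusted p under 0.05 in that order. Differences between compounds at rest ran from -0.36 to 0.26. For Tsr1 the OSW-1 minus 25HC interval was -0.41 to 0.40, and the widest interval in the 3 pairs, for Dkc1, reached -0.90 to 0.40, so differences of that size cannot be told from none.

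With LPS the compounds differed. OSW-1 exceeded 25HC in 47 of 48 members (28.3% of all genes higher and 30.4% lower, median difference 1.30), with Rrp1 the exception (95% interval -0.08 to 0.13). OSW-1 exceeded itraconazole in 43 (23.1% higher and 25.5% lower, median 0.85), the exceptions being Polr1c, Polr1e, Heatr1, Rcl1 and Rrp1. For Tsr1 these differences were 2.62 ± 0.21 and 1.42 ± 0.20. 25HC stood below itraconazole in 23 (3.73% of all genes lower and 2.8% higher, median -0.44), but that count was 3 without the 25HC with LPS library of mouse 1, and 9 without the itraconazole with LPS library of mouse 1 or of mouse 2. In 44 of 48 members the group means with LPS ran in the order OSW-1, itraconazole, 25HC, untreated from high to low. The share of all genes with that order was not counted, so the order cannot be called particular to the members.

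The excess of LPS cells over unstimulated cells was tested against that of untreated cells. With OSW-1 the response was higher for 43 of 48 members and lower for 0 (23.4% and 28.3% of all genes), with a median difference of 1.02, led by Gar1 (2.36 ± 0.30), Tsr1 (2.33 ± 0.29) and Rrp15 (2.13 ± 0.32). With itraconazole it was higher for 9 (12.2% of all genes; 14.2% were lower, and 0 members). They were Tsr1, Gar1, Rcl1, Nop14, Ddx10, Ncl, Utp3, Pes1 and Npm1. Without the untreated LPS library of mouse 3 that count was 14, and 1 was lower without the itraconazole with LPS library of mouse 3. With 25HC only Ddx18, an RNA helicase, differed (-0.62 ± 0.18), where 5.34% of all genes were higher and 6.95% lower. The count was 0 without the untreated library of mouse 3 of either state, the unstimulated 25HC library of mouse 1 or 2, or the 25HC with LPS library of mouse 1. It was 7 without the unstimulated 25HC library of mouse 3, 4 without the untreated LPS library of mouse 1, and 2 and 3 without the 25HC with LPS libraries of mouse 2 and mouse 3. With the mouse as a block it was 2.

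Libraries of OSW-1 with LPS stood apart in other ways, and the part of these in the result was not tested. Macrophage markers were lower in 8 of 8 (median -2.88), with a summed 5659 to 7769 CPM against 24432 to 35664 in untreated LPS cells. With itraconazole and LPS 5 of the 8 were lower and with 25HC and LPS 4. Of all genes, 37.1%, 27.9% and 21% were lower with OSW-1, itraconazole and 25HC in LPS cells. None of the 8 was at 0 with OSW-1 and LPS, where Csf1r was lower by 0.49 on the log2 scale. Of the dendritic list, the sum was 31.1 to 58.9 CPM against 1.70 to 1.97, most of it Ccr7 (43.6 against 1.36 CPM), with Siglech at 0 in the OSW-1 group. Lymphoid markers summed to at most 0.19 CPM there, with Cd3e, Cd3d, Ms4a1 and Ncr1 at 0. The neutrophil list summed to 4.85 to 6.21 against 6.30 to 11.7 CPM, the stromal list to 14.5 to 21.6 against 6.32 to 12.7 CPM and the mast and erythroid list to 3.33 to 6.02 against 0.18 to 0.90 CPM. The neutrophil sum was 2.55 to 3.93 CPM with 25HC and LPS and 4.22 to 12.5 with itraconazole and LPS. In Ch25h-/- LPS cells the stromal sum was 13.4 to 24.7 CPM. Neither of these sums set the OSW-1 with LPS group apart from all others. Totals of the OSW-1 with LPS libraries were 23.9 to 29.6 M counts against 36.3 to 40.9 in untreated LPS libraries. The former held odd counts too and the latter only even counts. How the counting differed is not given, so these totals may not be on the same scale. The 6 Ch25h-/- libraries also held odd counts, with totals of 23.7 to 27.5 M counts. Their member sums were 1444 to 1682 CPM, near those of untreated wild-type libraries (1337 to 1851). They are of another genotype and had no compound. With the even counts halved, all 48 were still called higher with OSW-1 and LPS. Halving a whole library leaves its fold changes nearly unchanged, so that result cannot speak to a difference in counting.

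Other genes of the pathway were followed as lists. Of all tested genes, 34.3%, 26.5% and 20.8% were higher with OSW-1, itraconazole and 25HC in LPS cells. At rest the shares were 20.1%, 14.4% and 15.9%. The list of 43 further large subunit factors had 39 higher and 1 lower with OSW-1 and LPS (median 1.59), 38 and 1 with itraconazole and 29 and 0 with 25HC. At rest it had 36, 31 and 34 higher in the same order. Gtpbp4, a nucleolar GTPase, rose by 2.34, 1.29 and 0.71 on the log2 scale with LPS and by 1.08, 0.97 and 1.03 at rest. The 36 further small subunit factors had 36, 33 and 19 higher with LPS and 17, 18 and 17 at rest, 0 lower in each. Of 12 further polymerase I factors, 11, 9 and 5 were higher with LPS and 6, 5 and 5 at rest. Taf1a, a subunit of the polymerase I selectivity factor, had 34.5, 29.7 and 24.5 CPM with OSW-1 and LPS against 2.70, 5.16 and 4.802 with LPS alone (2.81 on the log2 scale).

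Rrn3, the initiation factor that brings polymerase I to the promoter, rose by 1.05, 0.52 and 0.27 with OSW-1, itraconazole and 25HC in LPS cells. Ubtf, which binds the ribosomal DNA promoter, rose by 1.14 and 0.60 with OSW-1 and itraconazole and was not called with 25HC (0.19). At rest both rose with each compound, by 0.32 to 0.38.

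Cytosolic ribosomal protein genes were followed beside the factors. Of 40, 3, 1 and 1 were higher with OSW-1, itraconazole and 25HC at rest and 0 lower (medians 0.08, 0.02 and 0.00). With LPS, 9 were higher and 12 lower with OSW-1, 3 and 11 with itraconazole and 1 and 6 with 25HC (medians -0.10, -0.13 and -0.10). Of all genes with LPS, 34.3% were higher and 37.1% lower with OSW-1, 26.5% and 27.9% with itraconazole and 20.8% and 21% with 25HC. Rpl4 had 984, 1030 and 1032 CPM with OSW-1 and LPS against 603, 533 and 513 with LPS alone, and Rps19 fell by 0.79 on the log2 scale. Of the cell cycle list, 5 of 26 were higher and 17 lower with OSW-1, with Mki67, a proliferation marker, at -0.74.

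**Figure D5:**
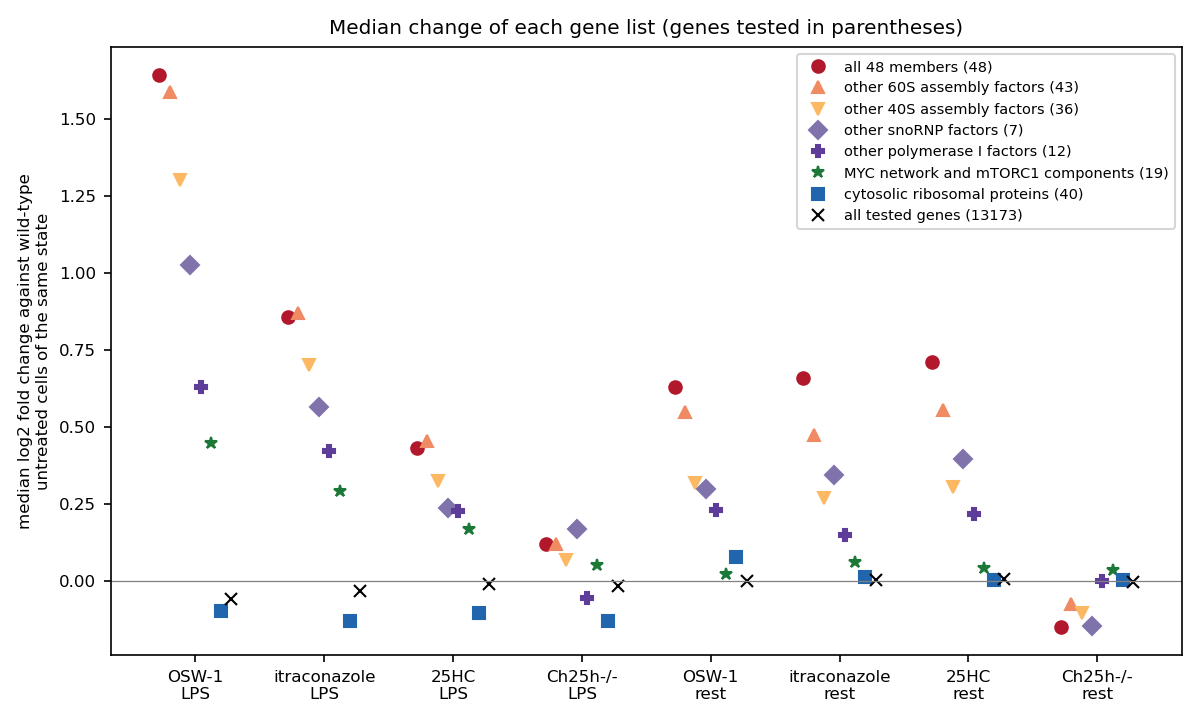
Median log2 fold change of each gene list against untreated wild-type cells of the same state. With OSW-1 and LPS the 48 factors and the 43 further large subunit factors lie near 1.6, while ribosomal proteins (-0.10) and all genes (-0.06) lie near 0.

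Myc was followed beside the members, and its part in their changes was not tested. Myc had 34.6, 43.4 and 31.6 CPM with OSW-1, 33.9, 37.6 and 33.3 with itraconazole and 39.5, 42.1 and 17.6 with 25HC at rest, against 5.20, 9.90 and 4.64 in untreated cells. The log2 fold changes were 2.47, 2.40 and 2.33. LPS lowered Myc by 2.46 on the log2 scale in untreated cells. With LPS it stood at 11.5, 15.9 and 16.4 CPM with OSW-1, 4.53, 5.22 and 3.55 with itraconazole and 6.25, 6.20 and 5.52 with 25HC, against 1.17, 1.32 and 1.09 in untreated cells. With LPS, every 25HC library lay above every itraconazole one for Myc. With OSW-1, LPS lowered Myc by 1.32 on the log2 scale. Mxd1, which encodes an antagonist of MYC, had 31.1, 33.9 and 26.8 CPM with OSW-1 and LPS against 377, 300.3 and 126 with LPS alone (-3.13 on the log2 scale). Of the 19 genes of the MYC and mTORC1 list, 12 were higher and 1 lower with OSW-1 and LPS (median 0.45), where 34.3% and 37.1% of all genes were.

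Loss of Ch25h was compared with wild-type in untreated cells. The Ch25h-/- libraries all held odd counts too and the untreated wild-type ones only even counts. Genotype and this difference in counting cannot be told apart here. At rest 0 of 48 members were called in either direction (0% of all genes higher and 0.00759% lower) by edgeR and by DESeq2, with 6 at an unadjusted p under 0.05 and a median of -0.15. Without the wild-type library of mouse 3, 1 was lower. With LPS 0 were higher and 1 was lower (0.0152% and 0.213% of all genes) by edgeR, with 4 at an unadjusted p under 0.05, and DESeq2 likewise called 0 higher and 1 lower. That 1 was Rcl1, with 10.6, 16.1 and 14.3 CPM in Ch25h-/- LPS cells against 50.4, 39.7 and 21.9 in wild-type LPS cells, without overlap (-1.45 ± 0.21). It was not called without the Ch25h-/- library of mouse 1. Without the wild-type LPS library of mouse 3, 5 others were higher. With LPS, Rcl1 was higher with every compound than in untreated wild-type cells: it had 94.2, 98.3 and 131 CPM with OSW-1, 108, 118 and 106 with itraconazole and 57.0, 72.4 and 84.0 with 25HC. Rcl1 is also the host of a microRNA gene, Mir101b, which these counts do not measure.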

How the data were processed

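All values come from 1 table of raw counts per gene that the authors deposited. The submitters' processing notes name the builds GRCm38 and mm10 and the tools GSNAP, featureCounts (Subread 1.5.2), FastQC 0.11.9 and edgeR 3.26.8, without saying what each did. The strand setting and annotation release are not given in the sources used here.

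Counts were scaled with TMM and filtered with filterByExpr (minimum count 10). One edgeR 4.0.16 quasi-likelihood fit (limma 3.58.1, R 4.3.3) held all 10 groups of 3 libraries, with 23 comparisons and Benjamini-Hochberg adjustment over all 13173 tested genes, called at an adjusted p under 0.05. Standard errors are the log2 fold change over the square root of F. The pipeline was tested on simulated data. Members, gene lists, tests and the rule for named genes (up to 6 largest and 6 smallest called changes, the highest genes of each role, members called in neither direction, and leading genes of other lists) were chosen with earlier results of these data known. Alternatives were DESeq2 1.42.0, its size factors, no filter, halved even counts, each library left out and the mouse as a block. Total counts without normalization factors were added after the data were seen. Python 3.11.15, pandas 2.3.3 and matplotlib 3.10.9 drew figures. RPKM used GENCODE vM21 exon lengths.

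The mouse number marks the animal within a genotype, so libraries of 1 mouse are not independent. In deviations from the group mean, correlations with libraries of other groups of the same genotype were averaged by mouse number. The highest average was that of the library's own number in 24 of 24 wild-type and 6 of 6 Ch25h-/- libraries. The median r of same-number pairs was low (0.0865 and 0.0906). P-values measure the spread between these mice only.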

Additional observations from a re-analysis of the deposited data

Results flagged for a closer look

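These results concern the LPS response with a compound set against the LPS response without it, tested as a difference of differences in the edgeR fit over all genes. With OSW-1, 43 members had a higher response, where 23.4% of all genes were higher and 28.3% lower. The 6 largest differences on the log2 scale were Gar1 (2.36), Tsr1 (2.33), Rrp15 (2.13), Nop58 (1.96), Utp20 (1.90) and Mybbp1a (1.82), and the 6 smallest called were Polr1c (0.44), Npm1 (0.51), Utp18 (0.53), Bop1 (0.62), Utp3 (0.63) and Nop56 (0.64).

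With itraconazole, 9 members had a higher response: Tsr1 (1.07), Gar1 (0.84), Rcl1 (0.80), Nop14 (0.74), Ddx10 (0.64), Ncl (0.55), Utp3 (0.35), Pes1 (0.35) and Npm1 (0.34). Of all genes, 12.2% were higher and 14.2% lower there. With 25HC, 1 member had a lower response, Ddx18 (-0.62), where 5.34% of all genes were higher and 6.95% lower. The libraries that make up each group are those of the main comparisons, and OSW-1 with LPS libraries also differed in total counts and in holding odd counts.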

How the results depend on the processing

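Counts of members called kept within 1.5 times of the main ones under DESeq2 size factors, no low-count filter and halved even counts in every comparison. With total counts in place of TMM (added after the data were seen), members called higher and lower in the LPS response became 2 and 32 in untreated wild-type cells, 1 and 41 with 25HC, 5 and 16 with itraconazole and 4 and 15 in Ch25h-/- cells. Of all genes, 17.3% and 49.6%, 18.2% and 49.9%, 21.1% and 46.9%, and 17.1% and 44.3% were then higher and lower in the same order. Pno1 with 25HC changed sign (-0.019), as did Pes1 (-0.068) and Noc2l (-0.039) with itraconazole. That scaling shifted the median of all genes by -0.34, -0.32, -0.29 and -0.27 in these comparisons and by 0.25 for OSW-1 against untreated cells with LPS, where all 48 calls remained.

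The difference of the 25HC response from the untreated one gave 1 higher and 2 lower members with DESeq2, 2 lower with the mouse as a replicate block and 0 lower with total counts. For the Ch25h-/- difference of responses DESeq2 gave 1 lower. The block moved no other count by more than 1.5 times, and gave no value for Ch25h-/- against wild-type, since a mouse belongs to 1 genotype. Why these counts moved was not tested.

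With each library left out in turn, the LPS response in untreated wild-type cells had 3 to 5 higher and 8 to 22 lower, and that with 25HC 1 to 3 higher and 17 to 32 lower. With LPS, 25HC against untreated had 21 to 39 higher, itraconazole against untreated 0 to 1 lower and 25HC against itraconazole 3 to 25 lower. Ch25h-/- against wild-type had 0 to 1 lower at rest, and 0 to 5 higher and 0 to 1 lower with LPS. Differences of responses had 0 to 7 lower with 25HC, 6 to 14 higher and 0 to 1 lower with itraconazole, and 0 to 4 higher and 0 to 1 lower in Ch25h-/- cells. The 48 higher with OSW-1 and LPS stayed at 48 in each. The shares of all genes in these fits were not counted, so a change of count cannot be called particular to the members. With 3 libraries a group, small changes of variable genes such as Dkc1 and Utp20 were not resolved. The antisense overlap of Tsr1 with Srr leaves those counts uncertain. In all, 17 members overlap an exon of a gene on the opposite strand, and the same limit holds for each.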
